A study of Mus musculus with 10 samples.

Results

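The genes that write, maintain, oxidise and remove DNA methylation were followed through the reprogramming of mouse fibroblasts to pluripotency. The set held 10 genes of the 45706 in the quantification tables, fixed by symbol and not by their values: Dnmt1, Uhrf1, Uhrf2, Dnmt3a, Dnmt3b, Dnmt3l, Tet1, Tet2, Tet3 and Tdg. They were represented by 88 of the 109617 quantified transcripts. All 10 genes passed the low-count filter that left 20165 genes for testing. Cytosine methylation in mammals is placed mainly on CG dinucleotides. Dnmt3a and Dnmt3b add it to unmethylated DNA with the help of the inactive partner Dnmt3l, and Dnmt1, brought to hemimethylated sites by Uhrf1, copies it after replication. The Tet enzymes oxidise methylcytosine in a reaction that needs iron and 2-oxoglutarate and is stimulated by ascorbic acid, and the glycosylase Tdg excises the more oxidised bases so that base excision repair can restore cytosine. Pluripotent cells are known for high Tet1 and Dnmt3l, and fibroblasts for neither.

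RNA was sequenced from 10 bulk libraries in 5 groups with 2 libraries per group. Mouse embryonic fibroblasts (MEF) of the genotype OKSM Col1a1/M2rtTA ROSA26 carried a doxycycline-controlled cassette for the reprogramming factors Oct4, Klf4, Sox2 and Myc. They were profiled uninduced and unsorted in MEF medium, and after 3, 6 and 9 days in ESC medium holding 1 ug/ml doxycycline and 50 ug/ml ascorbic acid. Day 3 cells were unsorted, and the later ones, of days 6 and 9, had been selected by sorting for the surface antigen SSEA1, so a change between day 3 and day 6 could not be told apart from the effect of sorting. Embryonic stem cells (ESC) were the single line V6.5, unsorted, in ESC medium with neither agent and no cassette listed, and the culture protocol grows ESC on irradiated feeder cells. All groups were listed as C57BL/6 x 129 and as 1 batch. The titles do not say what separated the 2 libraries of a group, so the p-values below measure the spread between these libraries. Ascorbic acid, itself an aid to Tet activity, was listed for every induced group and for no other, and its part cannot be told apart from that of the factors.

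Library totals ran from 29585876 to 38275024 estimated reads, and 16137 to 18522 genes per library had at least 10. The common biological coefficient of variation was 3.75%. The summed CPM, which are counts scaled to library size with TMM, of 10 fibroblast markers ran from 47241 to 48641 in MEF, 3583 to 3591 on day 3, 143 to 148 on day 6, 63.3 to 69.9 on day 9 and 4172 to 4319 in ESC, with Lum at 0 in both day 9 libraries. The sum of 5 pluripotency markers ran from 4.42 to 4.91 CPM in MEF, 225 to 246 on day 3, 342 to 367 on day 6, 397 to 407 on day 9 and 3752 to 3863 in ESC, with Dppa5a at 0 in 1 MEF library. Most of this sum on days 3, 6 and 9 was Pou5f1, which encodes the cassette factor Oct4. On day 3 against MEF, 1 of the 5 was called higher (Pou5f1) and 1 lower (Zfp42). The 4 endothelial markers, among them Tek at 121 CPM in both day 3 libraries, summed to 4.21 to 5.21 CPM in MEF, 129 to 132 on day 3, 128 to 133 on day 6, 77.2 to 78.0 on day 9 and 10.6 to 10.7 in ESC. Tek alone made up most of the day 3 sum. Cdh5 had a mean of 7.54 CPM on day 3 against 0.138 in MEF, whereas Tie1 and Kdr had lower means on day 3 than in MEF. The 5 immune markers summed to 11.4 to 12.9 CPM in MEF, 21.5 to 23.6 on day 3, 4.76 to 6.17 on day 6, 8.49 to 9.19 on day 9 and 79.3 to 81.6 in ESC, with Ptprc and Csf1r at 0 in 1 day 9 library. In ESC this sum was mostly Lyz2 and Cd68, at means of 50.1 and 25.5 CPM, and both also had higher means on day 3 than in MEF. Ptprc, Csf1r and Cd14 had lower means on day 3 and in ESC than in MEF. Xist stood at 0.74 and 0.79 CPM in MEF, at 930 to 1317 CPM in the 6 induced libraries and at 9.00 and 11.3 CPM in ESC. The Y-linked gene Ddx3y was at 86.4 and 90.6 CPM in MEF, between 0.05 and 0.18 CPM in the induced libraries and at 26.1 and 26.8 CPM in ESC. All 5 sex-linked genes differed between MEF and day 3 (1 called higher, 4 lower), as they did between ESC and MEF (1 higher, 4 lower) and between ESC and day 9 (4 higher, 1 lower). A difference in the embryos or lines used cannot be told apart from the change of state in these 3 comparisons.

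The sequences below show starts and exons of members whose levels or transcript shares differed between groups. The first 3 are RefSeq promoter windows of GRCm38.p6, 250 bases before to 50 after a transcription start, printed 5′ to 3′ on the strand of the gene with every CG dinucleotide in capitals. They are the upstream start of Dnmt3a at chr12:3806910-3807209 (plus strand), its downstream start at chr12:3891494-3891793 (plus strand) and a start of full-length Dnmt3l, that of Dnmt3l-003, at chr10:78049592-78049891 (plus strand), chosen because the share of reads differed between the Dnmt3a starts and because Dnmt3l separated ESC from every other group.
Dnmt3a upstream start: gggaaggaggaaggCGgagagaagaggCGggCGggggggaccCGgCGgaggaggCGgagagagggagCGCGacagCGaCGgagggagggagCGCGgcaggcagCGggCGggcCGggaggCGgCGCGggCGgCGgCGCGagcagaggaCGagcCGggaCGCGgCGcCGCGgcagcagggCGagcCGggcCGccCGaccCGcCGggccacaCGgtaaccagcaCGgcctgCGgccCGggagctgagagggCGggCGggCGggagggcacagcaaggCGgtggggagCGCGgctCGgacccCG
Dnmt3a downstream start: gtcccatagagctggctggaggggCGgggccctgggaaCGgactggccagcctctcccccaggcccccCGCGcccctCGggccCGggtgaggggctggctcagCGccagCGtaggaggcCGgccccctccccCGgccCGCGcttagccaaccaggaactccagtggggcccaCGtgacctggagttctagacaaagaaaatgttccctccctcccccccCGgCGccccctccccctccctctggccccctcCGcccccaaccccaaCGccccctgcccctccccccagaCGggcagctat
Dnmt3l start: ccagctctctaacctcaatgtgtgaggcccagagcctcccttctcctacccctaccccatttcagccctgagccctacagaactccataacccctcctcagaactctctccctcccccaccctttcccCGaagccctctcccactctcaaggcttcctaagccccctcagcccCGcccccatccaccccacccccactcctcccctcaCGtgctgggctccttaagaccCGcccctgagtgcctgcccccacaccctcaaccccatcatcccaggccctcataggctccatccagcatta
The upstream Dnmt3a window held 47 CG dinucleotides, and 98.8% of the 32851 RefSeq windows of this length held as many or fewer. Another upstream Dnmt3a window, which overlaps it at chr12:3806730-3807029 and is not printed, held 46. The downstream Dnmt3a window held 18 and the Dnmt3l window 4, against a median of 7 over all windows, and 38.04% of windows held no more than 4. Motifs were searched on both strands with overlapping matches counted. CCNCNCCC, the core that Klf factors are known to bind, occurred 14 times in the downstream Dnmt3a window, 8 times in the Dnmt3l window and 1 time in the upstream Dnmt3a window. This motif was present in 49.5% of all windows, so its presence alone set none of the members apart. The E-box CACGTG, a palindrome, occurred 1 time each in the downstream Dnmt3a, Dnmt3l and Tdg windows and in 7.15% of all windows. The octamer ATGCAAAT, found in 1.74% of all windows, was in none of the 17 windows of the 10 members, and the E2F-type TTCCCGCC, found in 2.19%, was in 1 Uhrf1 window alone. These are letter matches in short windows and show no binding.

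Next are the 3 coding exons of Dnmt3b that annotated transcripts skip, from the GENCODE M21 annotation of GRCm38, plus strand, again with every CG in capitals. They are exons 9, 20 and 21 of the 22 coding exons, at chr2:153670849-153670908, chr2:153683608-153683677 and chr2:153684359-153684477. The last 2 lie in the part that encodes the methyltransferase domain and are skipped together.
Dnmt3b coding exon 9: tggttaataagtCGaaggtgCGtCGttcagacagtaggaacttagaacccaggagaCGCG
Dnmt3b coding exon 20: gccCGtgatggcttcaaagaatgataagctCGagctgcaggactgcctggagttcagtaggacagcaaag
Dnmt3b coding exon 21: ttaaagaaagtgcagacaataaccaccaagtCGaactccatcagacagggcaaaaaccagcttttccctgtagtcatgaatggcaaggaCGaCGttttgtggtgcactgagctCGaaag
The 3 exons were 60, 70 and 119 bases long and held 5, 2 and 4 CG dinucleotides. The genes themselves lay, in GRCm38, at chr2:153649450-153687730 (Dnmt3b), chr3:133463679-133545139 (Tet2), chr6:83362373-83459084 (Tet3), chr9:20907209-20959888 (Dnmt1), chr10:62804570-62908996 (Tet1), chr10:78041947-78063622 (Dnmt3l), chr10:82629828-82650799 (Tdg), chr12:3806007-3914443 (Dnmt3a), chr17:56303321-56323486 (Uhrf1) and chr19:30030513-30093722 (Uhrf2).

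The 5 groups were compared in the order of the time course, and ESC were also compared with MEF. A gene was called higher or lower when its adjusted p was under 0.05 and its log2 fold change at least 1 in size. On day 3 against MEF, 3 of 10 members were called higher and 1 lower, while 14.6% of all tested genes were called higher and 14.5% lower. On day 6 against day 3, 2 members were called higher and 0 lower, beside 9.26% and 10.2% of all genes. On day 9 against day 6, 1 member was called higher and 0 lower, beside 5.18% and 2.68%. In ESC against day 9, 3 were called higher and 1 lower, beside 18.6% and 14.3%. The counts of these 4 steps are small and most lie near the shares over all genes. In ESC against MEF, 7 of 10 members were called higher and 2 lower, where 25.5% and 20.6% of all genes were. By an adjusted p alone, at any fold, the members higher and lower were 6 and 3 on day 3 (35.4% and 29.5% of all genes), 8 and 1 on day 6 (29.2% and 27.3%), 6 and 4 on day 9 (15.7% and 18.9%), 5 and 4 in ESC against day 9 (36.1% and 33.5%) and 8 and 2 in ESC against MEF (40.4% and 36.2%). The median log2 fold change of the members was 0.51, 0.66, 0.17 and 0.32 in the 4 successive steps and 1.81 in ESC against MEF, where the median over all tested genes was 0.08, 0.03, 0.00, 0.00 and 0.10.

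**Figure D1:**
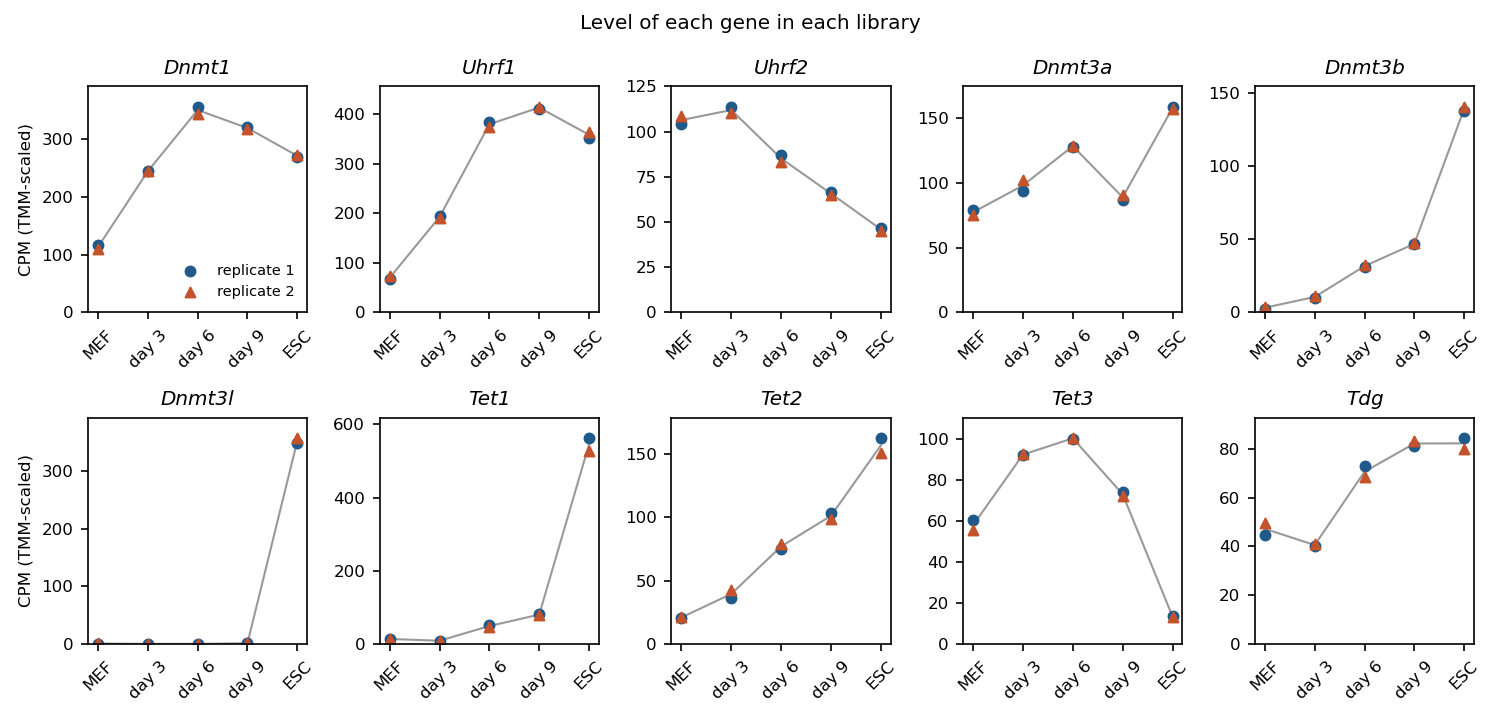
CPM of each of the 10 genes (y axis, TMM-scaled, each panel from 0) in MEF, days 3, 6 and 9 and ESC (x axis), with 1 point per library and a line through the group means. Dnmt3l and Tet1 stand far higher in ESC than on day 9, Tet3 is lowest in ESC, and Dnmt1 is highest on day 6.

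**Figure D2:**
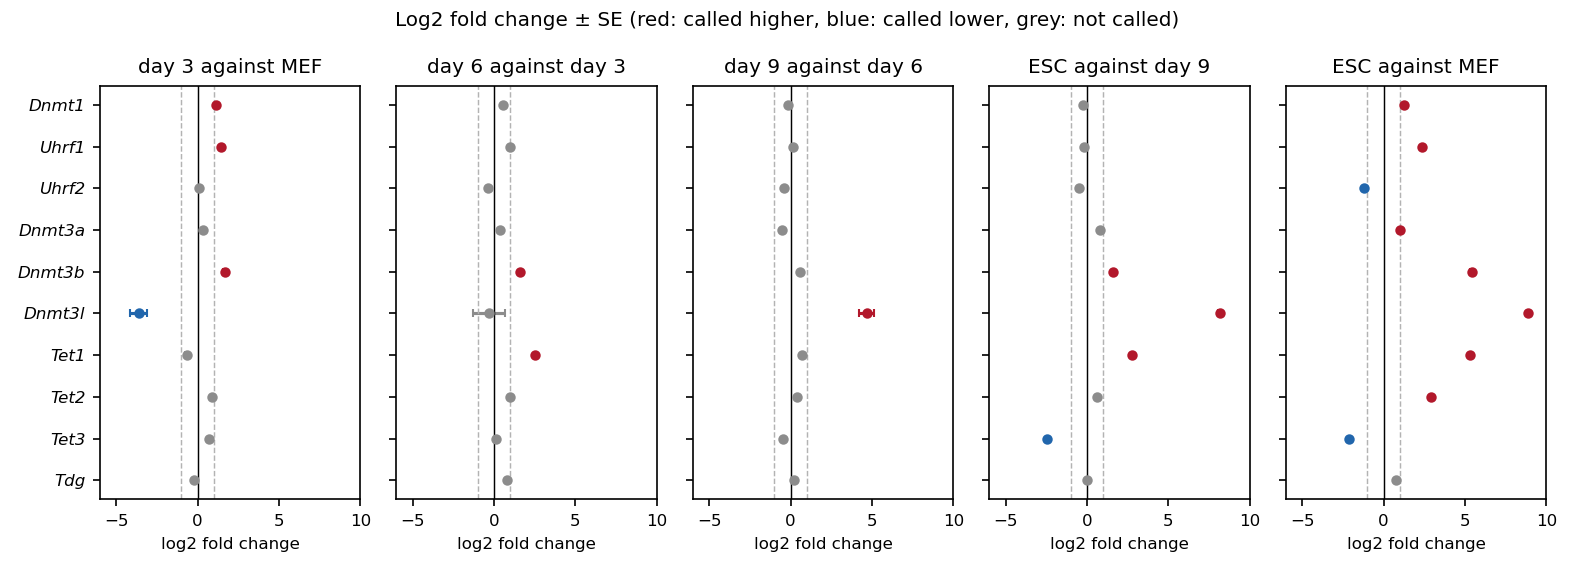
Log2 fold change (x axis) of each member (y axis) in the 5 comparisons, with the standard error as a bar and dashed lines at -1 and 1. Red points were called higher, blue points lower and grey points neither. Dnmt3l has the widest bars on days 3 to 9, where it had few reads, and the highest value in ESC against MEF.

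Maintenance of methylation was represented by Dnmt1, its recruiter Uhrf1 and the paralogue Uhrf2. Dnmt1 and Uhrf1 rose by day 3 and stood above the ESC level on days 6 and 9, while Uhrf2 ended lower in ESC than in MEF. Dnmt1, the enzyme that copies methylation onto the new strand, was at 116 and 109 CPM in MEF, 244 in both day 3 libraries, 356 and 344 on day 6, 320 and 317 on day 9 and 269 and 272 in ESC. No 2 neighbouring groups overlapped, and both day 6 libraries were above all others. Dnmt1 rose on day 3 against MEF (log2 fold change 1.11 ± 0.036 SE, adjusted p = 2.0e-12), and the difference from day 3 to day 6 was 0.52 ± 0.034 (adjusted p = 9.0e-09), under the fold threshold. From day 6 to day 9 it differed by -0.13 ± 0.034 (adjusted p = 0.0064) and from day 9 to ESC by -0.24 ± 0.034 (adjusted p = 2.5e-05). The day 9 mean was 118% of the ESC mean. DESeq2 gave 0.99 for the step from MEF to day 3, just under the fold threshold.

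Uhrf1, which recognises hemimethylated CG sites and recruits Dnmt1, was at 67.1 and 72.6 CPM in MEF, 195 and 190 on day 3, 384 and 374 on day 6, 411 and 415 on day 9 and 352 and 364 in ESC. The 2 MEF libraries were lowest and the day 9 libraries highest, with no overlap between neighbouring groups. It rose on day 3 (log2 fold change 1.46 ± 0.041, adjusted p = 3.9e-13). From day 3 to day 6 it differed by 0.98 ± 0.037 (adjusted p = 2.2e-11), at the edge of the fold threshold, and by 0.12 ± 0.036 from day 6 to day 9 (adjusted p = 0.017), a value that was -0.04 on the TPM scale. In ESC it was 2.36 ± 0.041 above MEF (adjusted p = 1.5e-15). Both genes are known to be transcribed in dividing cells, and the levels of 11 proliferation genes were followed beside them. The summed CPM of these 11 genes was 1309 to 1334 in MEF, 2819 to 2863 on day 3, 3479 to 3594 on day 6, 3486 to 3520 on day 9 and 4097 to 4164 in ESC. Of the 11, 6 were called higher on day 3 against MEF, led by the replicative helicase subunit Mcm7 (log2 fold change 1.55), and 9 in ESC against MEF, led by Mcm5 (2.73) and with a median of 1.67, while 0 were called in either direction in the 3 other steps by edgeR, although 9, 3 and 10 passed the adjusted p alone. In ESC against day 9, 9 of the 11 were higher and 1 lower by an adjusted p at any fold, with a median of 0.31, while Dnmt1 and Uhrf1 were lower, by -0.24 and -0.21. Over all tested genes, 14.6% were called higher on day 3 and 25.5% in ESC, each against MEF. The part of proliferation in the Dnmt1 and Uhrf1 values was not tested.

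Uhrf2, which shares the domains of Uhrf1 but does not replace it in maintenance, was at 104 and 109 CPM in MEF, 114 and 110 on day 3, 87.1 and 83.1 on day 6, 66.7 and 64.7 on day 9 and 46.9 and 45.1 in ESC. Levels were lower in each successive group after day 3, without overlap. No single step was called, with 0.07 ± 0.041 on day 3 (adjusted p = 0.13), -0.39, -0.37 and -0.52 in the next 3, but ESC against MEF was (log2 fold change -1.21 ± 0.044, adjusted p = 3.4e-12). Without TMM scaling, where the median over all genes was 0.44 instead of 0.10, this value was -0.87. Per length, Uhrf2 stood above Uhrf1 in MEF, at 35.0 and 39.7 TPM (reads scaled by transcript length and library) against 13.5 and 16.6 TPM. In ESC the order was reversed, with Uhrf1 at 86.7 and 82.1 TPM and Uhrf2 at 16.1 and 15.9. On day 3 the 2 genes overlapped, at 37.2 and 44.3 TPM for Uhrf1 and 40.8 and 42.3 for Uhrf2. On the models with at least 50% of the codons of the longest, which held 31.0% of the Uhrf2 TPM in MEF, Uhrf2 was at 11.5 and 11.7 TPM and Uhrf1 at 9.46 and 9.70 in MEF. On these models the 2 genes did not overlap on day 3, with a mean of 27.0 TPM for Uhrf1 and 11.4 for Uhrf2.

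The de novo enzymes differed from one another. Dnmt3b was higher in each group than in the one before, Dnmt3l was near 0 until day 9 and among the highest members in ESC, and Dnmt3a moved less in read counts and had a larger share of its reads on the downstream start in ESC. Dnmt3b was at 2.59 and 3.87 CPM in MEF, 10.1 and 11.1 on day 3, 30.8 and 32.6 on day 6, 46.8 and 47.3 on day 9 and 138 and 141 in ESC. Each group was above the one before it without overlap. The log2 fold change was 1.69 ± 0.12 on day 3 (adjusted p = 2.0e-08, and 0.85, under the fold threshold, in limma on log2(TPM + 1)), 1.58 ± 0.080 on day 6 against day 3 (adjusted p = 5.6e-10), 0.57 ± 0.066 on day 9 against day 6 (adjusted p = 1.1e-05, under the fold threshold) and 1.57 ± 0.060 from day 9 to ESC (adjusted p = 1.3e-11). Day 9 cells had 33.7% of the ESC level, and the whole difference between ESC and MEF was 42.5-fold. In bulk RNA a higher level in each cell and a higher share of cells with the RNA cannot be told apart, here and for all genes below.

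The forms of Dnmt3b also differed between groups. Salmon assigned each read to annotated transcripts from 50-base single-end reads, the error of that assignment is not in the files used here, and it is not in the intervals below. Among reads on coding models, the share on models with the exon pair of the methyltransferase domain was 15.9% and 0% in the 2 MEF libraries, 35.6% and 29.4% on day 3, 38.7% and 41.3% on day 6, 52.3% and 62.1% on day 9 and 69.9% and 68.2% in ESC. The group means were thus ordered from MEF to ESC, and the MEF values rested on 70 and 127 estimated reads. Only reads that touch the pair or its junctions can tell the models apart. The share of 0% in the second MEF library therefore sets no close upper limit. Models with the 60-base exon 9 took 15.9% and 0% in MEF, 24.7% and 6.11% on day 3, 38.7% and 40.7% on day 6, 64.7% and 41.5% on day 9 and 96.9% and 100% in ESC. The replicates differed widely on day 3 and on day 9, and both day 6 values lay under both day 9 values. The 776-codon transcript Dnmt3b-006, which lacks all 3 exons, held 84.1% and 62.5% of the reads of the gene in MEF, 63.6% and 67.7% on day 3, 59.8% and 58.1% on day 6, 23.5% and 32.0% on day 9 and 1.21% and 0.00% in ESC. Its change relative to the gene passed in ESC against day 9 (edgeR diffSpliceDGE, adjusted p = 0.020) and in ESC against MEF (adjusted p = 0.0029). Dnmt3b-007, with 796 codons, has exon 9 and lacks the pair, and it held 28.7% and 31.5% in ESC, 23.6% and 5.52% on day 9 and at most 0.00602% before (day 9 against day 6, adjusted p = 0.022). The 859-codon form Dnmt3b-002 with all exons held 28.6% and 29.1% in ESC and did not pass the test in any comparison.

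Dnmt3l, a cofactor without catalytic activity that binds Dnmt3a and Dnmt3b, was at 0.59 and 0.85 CPM in MEF, 0.08 and 0.03 on day 3, 0.09 and 0 on day 6, 1.22 and 1.24 on day 9 and 348 and 357 in ESC. In estimated reads these were 16 and 28, 3 and 1, 3 and 0, 38 and 49, and 11801 and 13371. Every library outside ESC was therefore at or under 49 reads, and the day 9 mean was 0.349% of the ESC mean. The step from day 9 to ESC had a log2 fold change of 8.16 ± 0.085 (adjusted p = 2.5e-17), and ESC against MEF 8.90 ± 0.095 (adjusted p = 2.0e-17). Dnmt3l was also called lower on day 3 than in MEF and higher on day 9 than on day 6, both from few reads. Scaled to library size, the 44 MEF reads against 4 on day 3 gave a ratio of 13.0 with an exact 95% interval of 4.75 to 50.0, and the 87 reads on day 9 against 3 on day 6 a ratio of 27.5 with an interval of 9.11 to 136. These intervals cover counting error only. In limma on log2(TPM + 1) neither step passed, with values of -0.70 and 0.47.

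The reads of Dnmt3l lay on different models in MEF and in ESC. In MEF the 126-codon model Dnmt3l-004, whose start is downstream of the window printed above, held 88.6% and 50.6% of reads. In ESC it held 0% and the 421-codon transcripts held almost all, with 76.6% and 83.1% on Dnmt3l-002, which also starts downstream of that window, and 20.3% and 14.3% on Dnmt3l-003. The relative change of Dnmt3l-004 passed in ESC against MEF (adjusted p = 0.0036) and in ESC against day 9 (adjusted p = 0.012). Day 9 reads lay mainly on the full-length model as in ESC, with 79.3% and 100% on Dnmt3l-002, from 38 and 49 reads. On day 9 the gene had 1.67 times the MEF level by counts (exact 95% interval 1.15 to 2.46) and most of its reads on a longer model. Per length over all models the order was the opposite, with 0.475 and 0.868 TPM in MEF and 0.429 and 0.381 TPM on day 9. On the models with at least 50% of the codons of the longest, it was at 0 and 0.0284 TPM in MEF and 0.301 and 0.381 on day 9.

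Dnmt3a, the main de novo enzyme of many adult tissues, was at 79.2 and 75.6 CPM in MEF, 94.0 and 102 on day 3, 128 and 129 on day 6, 87.1 and 90.8 on day 9 and 159 and 157 in ESC. ESC libraries were highest, day 6 second and day 9 lower than day 3, with no overlap between neighbours. The successive log2 fold changes were 0.34 ± 0.045 (adjusted p = 9.9e-06), 0.39 ± 0.043, -0.53 ± 0.043 and 0.83 ± 0.043, none past the fold threshold. Only ESC against MEF was called for this gene, at 1.03 ± 0.044 (adjusted p = 2.2e-11), and DESeq2 gave 0.95 and the fit without MEF replicate 2 gave 0.99, both under the threshold. TPM, which divides reads by transcript length, gave another picture. Dnmt3a was at 20.7 and 17.7 TPM in MEF, 8.52 and 12.7 on day 3, 24.8 and 24.2 on day 6, 14.1 and 15.5 on day 9 and 85.5 and 76.5 in ESC. With transcript length as an offset, the log2 fold change was -0.85 on day 3 against MEF, opposite in sign to the count-based 0.34, and 2.28 in ESC against day 9. These TPM values include short models, which count heavily per length. Models with at least 50% of the codons of the longest model held 88.4% of the reads and 19.9% of the TPM of Dnmt3a in MEF, and 77.9% of the reads and 19.3% of the TPM in ESC. On these longer models, a choice made after the values were seen, Dnmt3a was at a mean of 3.81 TPM in MEF, 5.39 on day 3, 6.45 on day 6, 4.21 on day 9 and 15.6 in ESC. The day 3 mean was then above the MEF mean, as in counts.

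The reads of Dnmt3a lay on models of different length in ESC and in the other groups. Transcripts from the upstream start encode 908 codons, and those from the downstream start, in the second window printed above, encode 689 codons and give the protein known as Dnmt3a2, the form described for embryonic stem cells. Among reads on these forms, the downstream share was 9.07% and 11.5% in MEF, 16.6% and 15.3% on day 3, 8.18% and 9.69% on day 6, 11.1% and 7.79% on day 9 and 40.2% and 40.1% in ESC. Both ESC libraries were above all others, and by TPM the mean share was 17.0%, 25.4%, 14.7%, 15.5% and 73.8%. The downstream form itself differed, too. In ESC, Dnmt3a-005, a 2328-base model, held 31.4% and 31.2% of all reads of the gene and at most 0.564% in any other library, while the 5424-base Dnmt3a-201 held 7.23% to 16.2% in the libraries from MEF to day 9 and 0% in ESC. In ESC against day 9 the relative changes of Dnmt3a-005 (adjusted p = 4.5e-08) and Dnmt3a-201 (adjusted p = 2.6e-06) passed in opposite directions. The 9685-base Dnmt3a-001, from the upstream start, held 49.3% and 66.8% on day 9 and 13.8% and 9.32% in ESC (adjusted p = 8.2e-06). The other 908-codon transcript, Dnmt3a-006, differed on day 3 against MEF, with 46.1% and 42.6% in MEF and 8.20% and 19.0% on day 3 (adjusted p = 0.0043). In ESC Dnmt3a-006 held 32.8% and 37.2%. The 908-codon forms together held 46.7% and 46.5% of all ESC reads of the gene, more than the 31.4% and 31.2% of the downstream form. Their models are longer, and per length the order was the opposite. Of the ESC TPM of the gene, the 908-codon forms held 4.85% and 5.28% and the downstream form 13.7% and 14.7%.

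**Figure D3:**
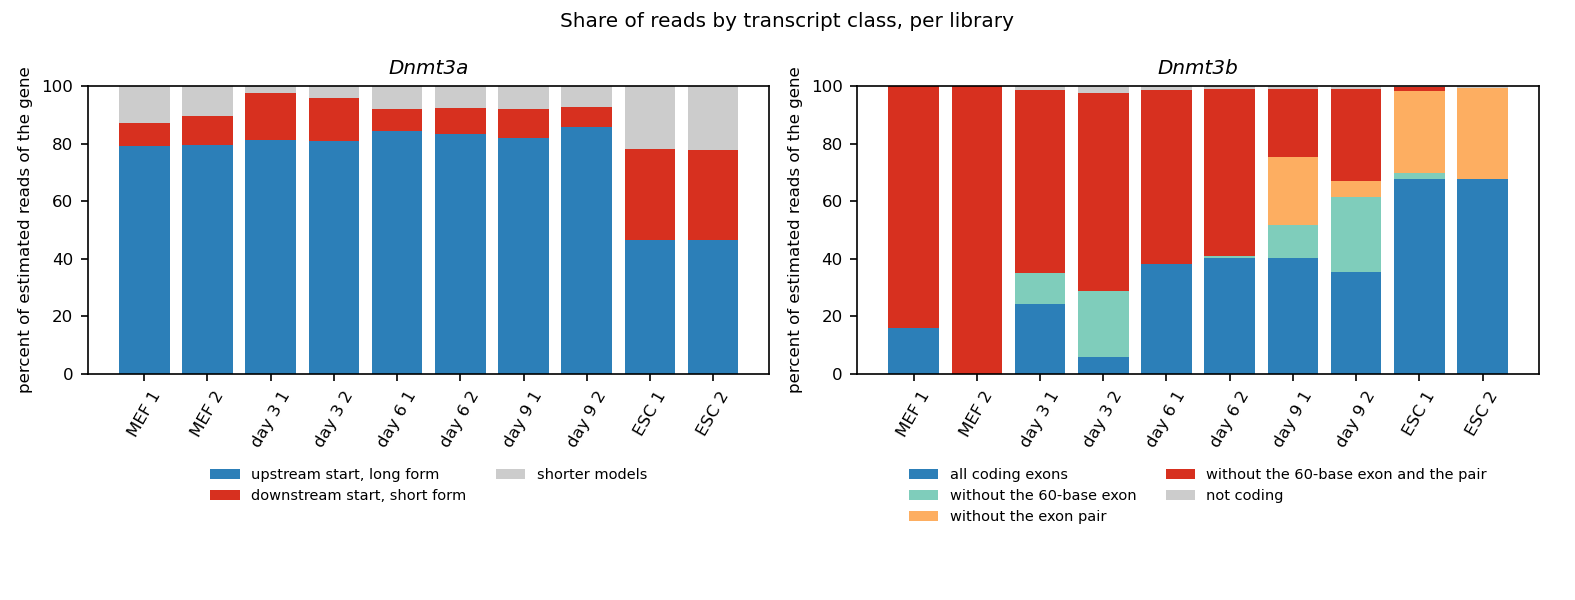
Percent of the estimated reads of Dnmt3a (left) and Dnmt3b (right) assigned to classes of annotated transcripts (stacked bars, y axis from 0 to 100) in each of the 10 libraries (x axis). The downstream Dnmt3a start takes a larger part in both ESC bars, and the Dnmt3b class without exon 9 and the exon pair fills most of the MEF bars and almost none of the ESC bars.

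Of the 29 member transcripts that held at least 10% of the reads of their gene in some group, 28 could be tested. Those called were 1 on day 3 against MEF, 0 on day 6 against day 3, 2 on day 9 against day 6, 7 in ESC against day 9 and 6 in ESC against MEF, where 2.07%, 0.825%, 0.377%, 1.73% and 2.21% of 46908 tested transcripts were. The 28 were kept for a large share in some group, which itself favours a call. The 46908 were not chosen in this way, so these counts and percentages cannot be set against each other. Beside the transcripts of the Dnmt3 genes named above, which include Dnmt3l-003 in ESC against day 9 (adjusted p = 0.034), the one other called was Tet2-002, a 1920-codon form. Its share was 60.4% and 37.4% in MEF, 15.8% and 14.8% on day 3, 25.6% and 21.2% on day 6, 2.44% and 5.67% on day 9 and 43.1% and 44.1% in ESC. It passed from day 6 to day 9 (adjusted p = 0.034) and from day 9 to ESC (adjusted p = 3.9e-04). The alternative 1912-codon Tet2-001 held 58.9% and 54.2% on day 9 and 30.4% and 30.9% in ESC and did not pass. The named transcripts of Dnmt1, Uhrf1, Uhrf2, Tet1, Tet3 and Tdg passed in none of the 5 comparisons; Tet3-001 alone held 92.0% to 97.3% of the reads of its gene in every library.

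Among the oxidising enzymes Tet1 and Tet2 ended higher and Tet3 lower in ESC than in MEF. Tet1, the family member typical of pluripotent cells, was at 13.4 and 14.0 CPM in MEF, 8.08 and 9.13 on day 3, 51.4 and 46.6 on day 6, 81.7 and 78.4 on day 9 and 562 and 528 in ESC. Day 3 libraries were lowest and ESC libraries stood far above all others. The difference on day 3 was -0.67 ± 0.090 (adjusted p = 1.2e-05), under the fold threshold in counts and at -1.49 with the length offset. The offset counts short models heavily, and the longer models held 37.6% of the Tet1 TPM in MEF and 73.9% on day 3. On the longer models the means were 0.416 TPM in MEF and 0.283 on day 3. Tet1 rose from day 3 to day 6 (log2 fold change 2.51 ± 0.073, adjusted p = 1.3e-12) and from day 9 to ESC (2.77 ± 0.049, adjusted p = 3.1e-15). Day 9 cells had 14.7% of the ESC level, and ESC were 39.8-fold above MEF.

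Tet2, which lacks the CXXC domain that Tet1 carries, was at 20.7 and 21.1 CPM in MEF, 36.3 and 42.7 on day 3, 75.1 and 78.9 on day 6, 103 and 98.9 on day 9 and 163 and 151 in ESC. Each group was above the one before, without overlap. The 4 steps were 0.91 ± 0.077 (adjusted p = 9.1e-08), 0.97 ± 0.065 (adjusted p = 1.3e-08), 0.39 ± 0.060 and 0.63 ± 0.058, all under the fold threshold, and the whole difference between ESC and MEF passed it at 2.90 ± 0.070 (adjusted p = 4.3e-14). Without D3 replicate 1 the first step was 1.03, and without D3 replicate 2 the second was 1.07, each then past the threshold. On day 9 Tet2 was at 64.6% of the ESC level.

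Tet3, the form that oxidises the paternal genome in the zygote, was at 60.7 and 55.5 CPM in MEF, 92.4 and 92.5 on day 3, 100.3 and 100.5 on day 6, 74.1 and 72.1 on day 9 and 13.9 and 12.9 in ESC. Day 6 libraries were highest, and ESC libraries were below all others. Tet3 fell from day 9 to ESC (log2 fold change -2.45 ± 0.056, adjusted p = 4.2e-14) and was lower in ESC than in MEF (-2.12 ± 0.057, adjusted p = 1.5e-13). The steps before day 9 were 0.67 ± 0.046, 0.12 ± 0.044 (adjusted p = 0.032) and -0.46 ± 0.045, none past the fold threshold. Day 9 cells had 546% of the ESC level of Tet3 and 143% of that of Uhrf2. The summed fibroblast markers were at 8.86% of the MEF sum in ESC and at 0.139% on day 9, and the part of fibroblast RNA in the ESC values of Uhrf2 and Tet3 was not tested.

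Tdg, the glycosylase that removes formylcytosine and carboxylcytosine, was at 44.8 and 49.6 CPM in MEF, 40.0 and 41.1 on day 3, 73.0 and 68.4 on day 6, 81.3 and 83.1 on day 9 and 84.4 and 80.1 in ESC. The libraries fell in 2 ranges, 40.0 to 49.6 up to day 3 and 68.4 to 84.4 from day 6. Differences were -0.22 ± 0.056 on day 3 (adjusted p = 0.0030), 0.80 ± 0.054 on day 6 against day 3 (adjusted p = 1.2e-08) and 0.22 ± 0.050 on day 9 against day 6 (adjusted p = 0.0037). Day 9 and ESC overlapped (log2 fold change -0.00 ± 0.050, adjusted p = 1.0), with day 9 at 99.9% of the ESC mean. ESC against MEF gave 0.80 ± 0.053 (adjusted p = 3.8e-09), under the fold threshold, and 1.14 without TMM scaling.

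Levels were compared between genes only per length, in TPM. In MEF Uhrf2 led with a mean of 37.4, followed by Dnmt3a at 19.2, Uhrf1 at 15.1, Dnmt1 at 10.2 and Tdg at 9.58, the last 2 overlapping, and the 3 Tet genes, Dnmt3l and Dnmt3b were each at 3.03 or less. On day 3 Uhrf2 (41.6) and Uhrf1 (40.7) overlapped at the top. On day 6 and day 9 Uhrf1 led alone, at 89.0 and 86.7. In ESC the order was Dnmt3l at 136, Uhrf1 at 84.4 and Dnmt3a at 81.0, these 2 overlapping, then Dnmt1 at 25.9, Tet1 at 21.3 and Tet2 at 20.3, overlapping, Dnmt3b at 18.7, Tdg at 17.2 and Uhrf2 at 16.0, of which Dnmt3b overlapped Tdg and Tdg overlapped Uhrf2, and Tet3 at 0.651. Dnmt3l thus moved from rank 10 on days 3, 6 and 9 to rank 1 in ESC. Its ratio to Dnmt3a was 0.0305 and 0.0246 on day 9 and 1.66 and 1.69 in ESC. On the longer models alone, the order in MEF was Uhrf2 at 11.6, Dnmt1 at 10.2, Uhrf1 at 9.58, Tdg at 7.32 and Dnmt3a at 3.81; Dnmt3a was at rank 5 here and at rank 2 over all models. In ESC it was Dnmt3l at 119, Uhrf1 at 51.4, Dnmt1 at 25.9, Tet1 at 18.9, Dnmt3b at 17.8, Dnmt3a at 15.6, Tdg at 13.5, Tet2 at 6.37, Uhrf2 at 5.27 and Tet3 at 0.638. Dnmt3l at the top and Tet3 at the bottom in ESC held on both sets of models, whereas the places of Dnmt3a and Tet2 in ESC depended on the short ones.

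Summed by function, the TPM of Dnmt3a, Dnmt3b and Dnmt3l was 20.3 ± 1.73 in MEF, 12.2 ± 3.12 on day 3, 28.9 ± 0.462 on day 6, 21.1 ± 0.959 on day 9 and 235 ± 14.7 in ESC (mean ± SD, n = 2). On the longer models alone the mean sums were 4.22 in MEF, 6.71 on day 3, 10.4 on day 6 and 152 in ESC, with 9.95 and 10.04 in the day 9 libraries, so the closeness of day 9 and MEF, and the low on day 3, did not hold there. Dnmt1 and Uhrf1 summed to 25.3 ± 1.58, 63.3 ± 5.60, 121 ± 2.66, 114 ± 2.27 and 110 ± 3.42. The 3 Tet genes summed to 6.72 ± 0.894, 9.62 ± 0.727, 16.5 ± 1.18, 18.7 ± 2.25 and 42.2 ± 1.99, and on the longer models to 3.65, 5.50, 8.81, 8.61 and 25.9. Within them the ratio of Tet1 to Tet3 was 0.482 and 0.367 in MEF, 1.06 and 0.874 on day 9 and 32.1 and 33.4 in ESC. The maintenance pair was above its ESC level on day 6, whereas the sums of the other 2 groups on day 9 were below those in ESC.

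**Figure D4:**
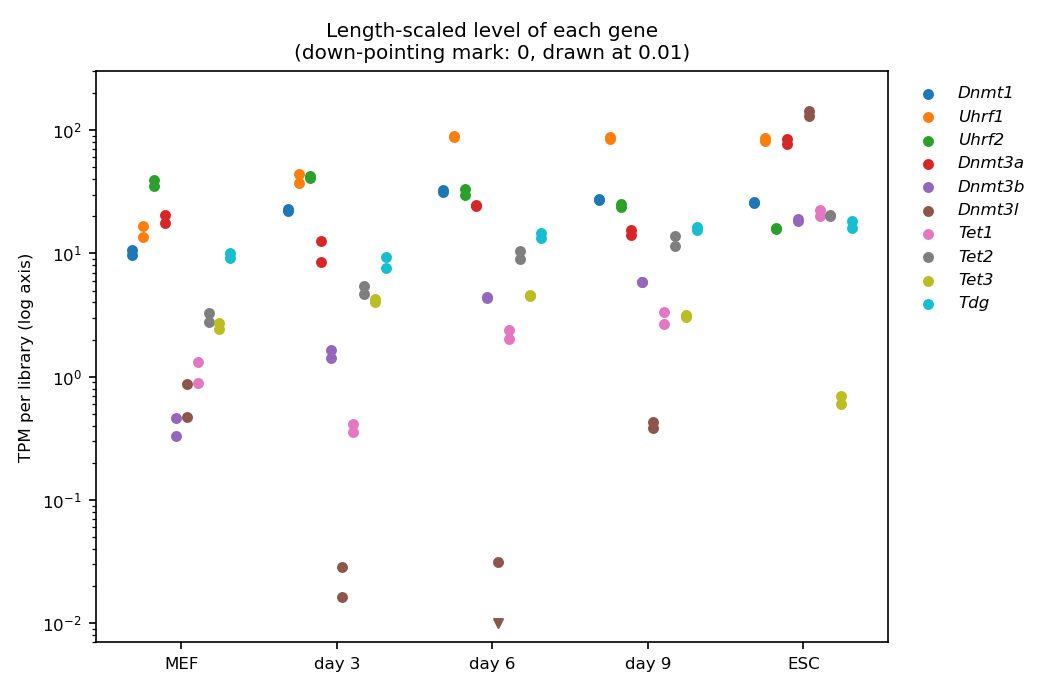
TPM of each member (y axis, log scale) in each library, by group (x axis), with 1 point per library and the down-pointing mark for a value of 0 drawn at 0.01. Dnmt3l is the lowest gene on days 3, 6 and 9 and the highest in ESC, and Tet3 is the lowest gene in ESC.

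Genes that act around the members were taken from fixed lists. Of 7 genes for proteins of the families that read methylated CG sites, here called readers, 3 were called lower and 0 higher in ESC against MEF. Over all genes, 20.6% were called lower and 25.5% higher in that comparison. The list median was -0.99 against 0.10 over all genes. Membership of a family does not mean that each protein, such as Mbd3, reads methylated sites itself. The largest fall was in the repressor Zbtb4, at 73.8 and 70.5 CPM in MEF, 150 and 158 on day 3, 65.9 and 64.1 on day 6, 35.5 and 35.1 on day 9 and 18.1 and 19.1 in ESC (ESC against MEF -1.95 ± 0.051, adjusted p = 9.8e-14). Zbtb4 was also the 1 reader called higher on day 3 (1.09) and the 1 called lower on day 6 against day 3 (-1.24). Over all genes, 14.6% were called higher on day 3, 10.2% lower on day 6 and 14.3% lower from day 9 to ESC. No reader was called from day 6 to day 9 by edgeR, although 5 were lower by an adjusted p alone, and 2 were called lower from day 9 to ESC, led by Zbtb33, also known as Kaiso (-1.39 ± 0.060, adjusted p = 5.1e-11).

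Base excision repair genes act after Tdg or after deamination. Of 12, 4 were called higher and 0 lower on day 3 against MEF, and 2 higher and 0 lower on day 6. On day 9 edgeR called 0 in either direction. From day 9 to ESC 0 were called higher and 1 lower, and in ESC against MEF 5 higher and 0 lower. Over all genes, 14.6%, 9.26%, 5.18%, 18.6% and 25.5% were called higher in these 5 comparisons. The shares called lower were 14.5%, 10.2%, 2.68%, 14.3% and 20.6%. By an adjusted p alone 6 of the 12 were higher and 1 lower on day 9, beside 15.7% and 18.9% of all genes. The list median in ESC against MEF was 0.81. The uracil glycosylase Ung led in ESC against MEF, at 6.50 and 5.40 CPM in MEF and 78.8 and 81.6 in ESC (3.76 ± 0.088, adjusted p = 3.3e-14). Neil3, a glycosylase for oxidised bases found in dividing cells, led on day 3, at 7.28 and 7.23 CPM in MEF and 39.0 and 39.5 on day 3 (2.44 ± 0.064, adjusted p = 1.9e-13), and was the 1 gene called lower from day 9 to ESC (-1.63). Neil2, another glycosylase of that family, had the largest rise on day 6, from 1.78 and 1.77 to 3.88 and 3.66 CPM (1.09 ± 0.18, adjusted p = 1.2e-04).

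Of 12 genes that recruit or regulate the members, 2 were called higher on day 3, 2 on day 6 and 2 on day 9. From day 9 to ESC 5 were called higher. Those called lower in these steps were 0, 0, 0 and 2. In ESC against MEF, 7 were higher and 1 lower, with a median of 1.88. Over all genes, 14.6%, 9.26%, 5.18%, 18.6% and 25.5% were called higher in these 5 comparisons. The shares called lower were 14.5%, 10.2%, 2.68%, 14.3% and 20.6%. Cdca7, a partner of the remodeller Hells in maintaining methylation, led on day 3, at 10.6 CPM in both MEF libraries and 79.8 and 81.1 on day 3 (2.92 ± 0.048, adjusted p = 1.3e-15). Prdm14, a factor that represses Dnmt3 genes in pluripotent cells, had 0 reads in all MEF and day 3 libraries, 3 and 7 on day 6, 42 and 61 on day 9 and 962 and 1071 in ESC, and it led on day 6 (adjusted p = 0.0021), from day 9 to ESC (4.29 ± 0.15, adjusted p = 9.9e-11) and in ESC against MEF (adjusted p = 5.6e-12). Dppa3, which is known to displace Uhrf1 from chromatin, led on day 9, with 2 and 0 reads on day 6, 54 and 55 on day 9 and 306 and 356 in ESC (adjusted p = 3.7e-06 on day 9). Cxxc4, which binds unmethylated CG sites and is known to lower Tet2 protein, fell most in ESC, from 19.8 CPM in both day 9 libraries to 0.471 and 0.614 (-5.17 ± 0.14, adjusted p = 2.7e-13).

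Few genes for the supply of the methyl donor and of the Tet cosubstrates passed both thresholds, although more passed the adjusted p alone. Over all genes, 14.6%, 9.26%, 5.18%, 18.6% and 25.5% were called higher in the 4 steps and in ESC against MEF. The shares called lower were 14.5%, 10.2%, 2.68%, 14.3% and 20.6%. Of 6 genes for S-adenosylmethionine supply, 1 was called higher on day 3, 1 lower from day 9 to ESC, and 1 higher and 1 lower in ESC against MEF, and 0 were called in the other 2 steps by edgeR, where 4 and 3 passed the adjusted p alone. Methionine synthase, Mtr, was the gene that rose on day 3 (1.13 ± 0.048, adjusted p = 4.1e-11) and fell from day 9 to ESC (-1.18 ± 0.041, adjusted p = 4.2e-12). It was also the gene called higher in ESC against MEF (1.12), where the list median was 0.41 and where 4 genes were higher and 2 lower by an adjusted p alone. Of 8 genes for 2-oxoglutarate and ascorbate supply, 1 was called higher in each of the first 3 steps, 2 were called lower from day 9 to ESC, and 2 were higher and 1 lower in ESC against MEF, with a median of 0.22. By an adjusted p alone, all 8 were lower in ESC than on day 9, with a median of -0.62, where 33.5% of all genes were lower, and 4 were higher and 3 lower in ESC against MEF. The ascorbate transporter gene Slc23a1 was at 0.332 and 0.701 CPM in MEF, 0.646 and 0.680 on day 3, 1.38 and 1.60 on day 6, 14.1 and 15.0 on day 9 and 1.44 and 1.04 in ESC, and it led on day 6, on day 9 (3.28 ± 0.21, adjusted p = 2.9e-08) and in the fall to ESC (-3.55 ± 0.22, adjusted p = 2.5e-09). Day 9 libraries were the only ones above 2 CPM for this gene. Ascorbic acid was added to the medium on days 3, 6 and 9 alike, and the part of the medium was not tested. Idh1, the cytosolic source of 2-oxoglutarate, fell most in ESC against MEF, from 256 and 259 to 64.8 and 65.3 CPM (-1.98 ± 0.034, adjusted p = 1.6e-15).

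**Figure D5:**
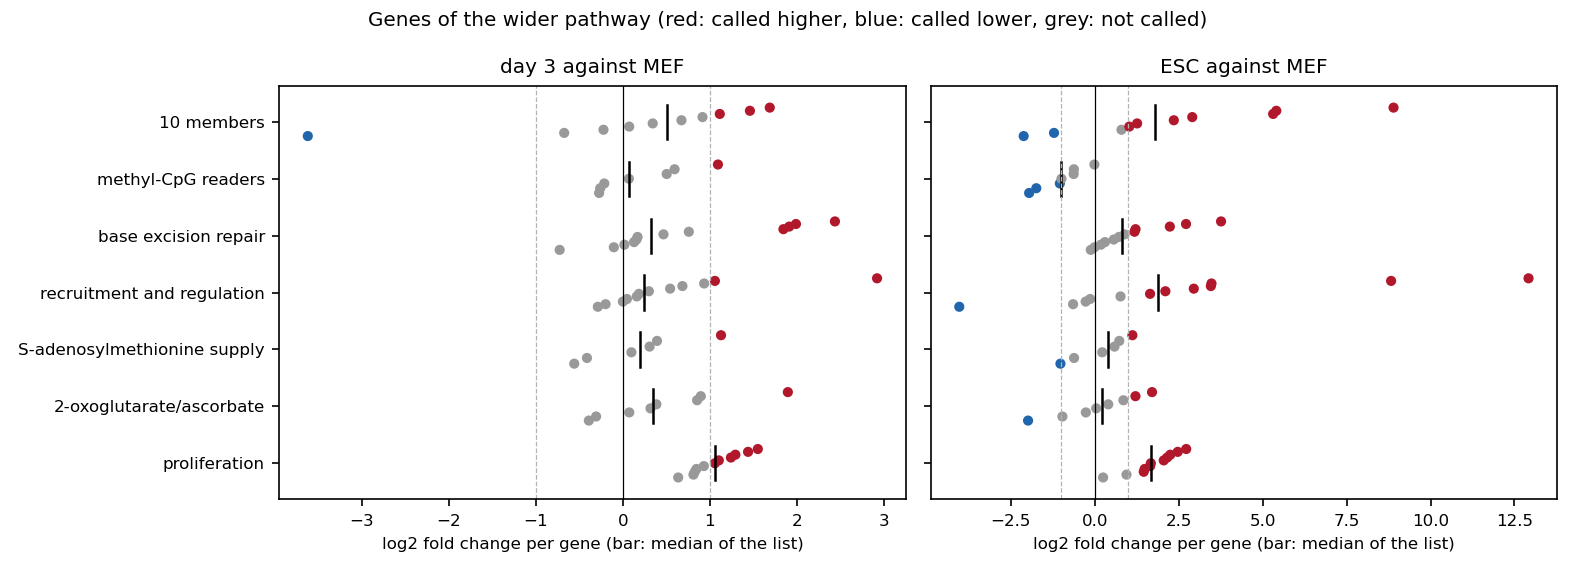
Log2 fold change (x axis) of every gene of the members and of 6 lists around them (y axis) on day 3 against MEF (left) and in ESC against MEF (right), with a bar at each list median and dashed lines at -1 and 1. Red points were called higher, blue lower and grey neither. In ESC against MEF no reader of methylated DNA lies to the right of 1, and the members span the range from Tet3 to Dnmt3l.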

How the data were processed

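Poly(A)-selected stranded mRNA libraries were sequenced as 50-base single-end reads from 5 groups of 2 libraries, per the labels' protocols. The deposited tables hold, for each transcript, an estimated count and a TPM value, per the file headers. The authors made them with Salmon 0.8.2, and mm10 is named as the build, per the submitters' processing notes; the index, the annotation release and any read filter are not given in the sources used here. Effective lengths were identical in all 10 files.

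Estimated counts and TPM were summed per gene ID, and the counts were rounded to whole numbers. One edgeR 4.0.16 quasi-likelihood fit (R 4.3.3) over all 10 libraries, with a mean per group, TMM scaling and filterByExpr (minimum count 10, total 15), tested 20165 genes, with Benjamini-Hochberg adjustment over all of them and calls at an adjusted p under 0.05 and a log2 fold change of at least 1. TPM was also summed over coding models with at least 50% of the codons of the longest, an alternative chosen after seeing the data. Transcripts were tested against their gene with diffSpliceDGE over all genes. DESeq2 1.42.0 on the counts, limma 3.58.1 on log2(TPM + 1) and log2(TPM + 0.1), a length offset, other filters, single-library omissions and a replicate block were alternatives. Gene and transcript models came from GENCODE M21 (GRCm38), in which 98.8% of gene IDs and all 88 member transcripts were found, and 10 of 10 members matched RefSeq promoter windows. Replicates of a group differed by more than counting noise (chi-square per degree of freedom 2.78 to 5.05), so the tables are not copies of one library; this does not show that they came from separate cultures. In a simulation of the day 3 comparison with 50 genes at each fold, edgeR found 100% of 4-fold and 2-fold changes by adjusted p at any fold. By that rule 5 unchanged genes of 20165 passed. The fold minimum used for calls was not scored there, and the changed genes were drawn above a minimum level. In a second simulation diffSpliceDGE found 100% of 200 exchanged pairs and called 18 transcripts in other genes. Its counts were drawn for each transcript on its own, with a fixed spread and no error of read assignment. The pairs were drawn above a minimum level. It therefore cannot show how the test fares where shares differ widely between replicates, as those of Dnmt3b did on day 9.

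The members and all gene lists were chosen with earlier results of these data known, and the lists support nothing by themselves. All members are named, and from each list of readers, repair, recruitment, S-adenosylmethionine, 2-oxoglutarate, proliferation, sex-linked, fibroblast, pluripotency, immune and endothelial genes the counts, with the largest called rise and fall in a comparison. A few further list genes, named to say which marker carried a sum or was at 0, were chosen after their values were seen. Transcripts are named that held at least 10% of the reads of a member in the mean of a group. The values of 2 list genes are not reported here.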

Additional observations from a re-analysis of the deposited data

How the results depend on the processing

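Of 949 alternative log2 fold changes of single members, 909 kept their direction and their side of the thresholds, 17 passed and 7 lost them, and 16 changed sign; the cause was not tested. Dnmt3a on day 3 against MEF went to -0.85 with a length offset and to -0.82 and -0.87 in limma on log2(TPM + 1) and log2(TPM + 0.1). The others that changed sign were near 0 or rested on few reads: Uhrf2 on day 3 (-0.0513 in DESeq2, -0.0147 with a 10 CPM filter), Uhrf1 on day 9 against day 6 (-0.0376 and -0.0380 in limma), Dnmt3l on day 6 against day 3 (0.53 without D3 replicate 1, 0.61 without D6 replicate 2, with leave-one-out values from -4.04 to 0.61) and Tdg in ESC against day 9 (0.0670 in DESeq2, 0.0497 without TMM, 0.0498 with the 10 CPM filter, 0.104 and 0.109 in limma, 0.0145 without D9 replicate 2, and leave-one-out values from -0.0345 to 0.0317). The median over all genes on day 3 against MEF was 0.29 without TMM.

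Without a fold minimum, the members higher and lower were 6 and 3 on day 3, 8 and 1 on day 6, 6 and 4 on day 9 and 5 and 4 from day 9 to ESC. On day 3, 2 members were higher in DESeq2, where Dnmt1 lost its call, 4 without TMM, where Tet2 gained one, and 2 in limma with pseudocount 1, where Dnmt3b lost its call at 0.85, beside 11.4%, 18.9% and 6.35% of all genes. There 2 members were lower with the length offset, 0 in limma with pseudocount 1 and 2 with 0.1, beside 13.6%, 6.86% and 11.7%. On day 6, 4 were higher without TMM, with the length offset and in limma with pseudocounts 1 and 0.1, beside 10.1%, 8.24%, 2.91% and 6.18% of all genes (9.26% as reported). On day 9, 0 were higher in limma with pseudocount 1 (1.14% of all genes), and in ESC against MEF 1 was lower without TMM (15.6%). On the longer coding models alone, chosen after seeing the data, mean TPM in ESC was 15.6 for Dnmt3a, 6.37 for Tet2 and 5.27 for Uhrf2. The downstream Dnmt3a share by TPM was 17.0%, 25.4%, 14.7%, 15.5% and 73.8% from MEF to ESC. With 1 library left out, where the lone library of a group is assumed to vary like the others, the members called higher ranged from 3 to 4 on day 3 (4 without D3 replicate 1), 2 to 3 on day 6 (3 without D3 replicate 2) and 6 to 7 in ESC against MEF (6 without MEF replicate 2), and the other counts kept their value.

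Replicate numbers are shared by the groups but nothing ties them to a common source, and same-numbered libraries did not deviate together (mean correlation 9.9e-05, pairs from -0.0205 to 0.0222). A replicate block left 3 members higher and 1 lower on day 3, 2 and 0 on day 6, 1 and 0 on day 9, 3 and 1 from day 9 to ESC and 7 and 2 in ESC against MEF, and changed no call.

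Groups of 2 libraries limit every estimate of spread, and the transcript shares of Dnmt3b in MEF and of Dnmt3l before ESC rest on few reads.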

Other observations

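For each member, the genes with the most similar course were sought among 9926 protein-coding genes with a mean of at least 10 CPM, by Pearson's r of log2 CPM over the 10 libraries. These values describe 5 groups of 2 libraries that share their groups and scaling, and carry no test. Dnmt1 was most like Rrm2 (0.999), a subunit of the enzyme that makes deoxynucleotides, and Dek (0.997). Uhrf1 was most like Tdh (0.999), the threonine dehydrogenase of embryonic stem cells, and Vrk1 (0.999). Dnmt3b was most like Rfx2 (0.998) and the mismatch repair gene Msh6 (0.997), and Tet2 was most like Zfp568 (0.997) and the histone chaperone Nasp (0.996). Tet1 was most like Coprs (0.999) and Cirh1a (0.998), and Dnmt3l like Ass1 (0.995), which makes argininosuccinate, and Sugt1 (0.987). Tet3 was most like Ly6a (0.997), which encodes the surface antigen Sca-1, and Mtss1l (0.997), Uhrf2 like Hps5 (0.998) and Pafah1b2 (0.996), and Tdg like the lactate transporter gene Slc16a1 (0.994) and the ligase gene Lig3 (0.993), itself of the repair list above. The least close were the partners of Dnmt3a, Atf1 and Btrc, both at 0.968. Among the members themselves Dnmt3b and Tet2 were closest (r = 0.994), Dnmt1 and Uhrf1 had r = 0.968, and Tet1 and Uhrf2 (-0.986) and Dnmt3l and Tet3 (-0.979) ran in opposite directions.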
